A study of Mus musculus with 69 samples.

Results

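The genes described here are 9 of the endoplasmic reticulum: Hspa5, Dnajc10, Pdia3, Pdia4, Erp44, Mlec, Atf6, Sec61a1 and Sec61b. All but Atf6, the gene of a sensor of unfolded proteins, act in folding new proteins there or in passing them into it. The 9 genes were picked by name from the 9930 complete gene records of the count table, and all 9 were counted in every library. The choice was made with the differences by genotype and rearing at postnatal day 66 (P66) known. Those differences are therefore given as a description, without a test, while the younger animals, the average over groups by age and the variation inside groups supply the tests. The average by age contains the P66 levels of genes chosen with earlier results of these data known, which limits its p-values.

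Proteins made for the cell surface, for secretion or for the organelles of the secretory route enter the endoplasmic reticulum through the Sec61 channel and fold there with the help of Hsp70 and lectin chaperones and of disulfide isomerases. When unfolded proteins build up, sensors in the membrane, ATF6 among them, start the unfolded protein response, and the gene of the Hsp70 chaperone BiP, Hspa5, is its classical target. Neurons depend on this machinery for receptors, channels and adhesion molecules.

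The data are RNA-seq libraries of the hippocampus, each from a different male mouse (69 in all). The study crossed loss of Cdh13, which encodes the cell adhesion protein T-cadherin, with early maternal separation. Separated litters were taken from the dam for 3 h on each day from P1 to P14, control litters were handled, and both were weaned at P22. The 8 groups were 10 separated knockout, 9 control knockout, 11 separated wildtype and 8 control wildtype animals killed at P22, and 7 separated knockout, 7 control knockout, 10 separated wildtype and 7 control wildtype animals killed at P66. The animals came from 2 breeding cohorts, which enter every fit as a term. Separation was applied to litters, which the labels do not name, so animals were treated as independent and the p-values of separation would be too small where animals of 1 litter are alike. Strain and construction of the Cdh13 allele are not stated in the labels. The level of Cdh13 was not analysed here and could not serve as a check of the genotypes. The hippocampus was cut from frozen slices about 1 mm thick, which can carry neighbouring tissue.

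The held part of the table covers chromosomes 1 to 7 and the beginning of chromosome 8, and its libraries held 11.3 to 16.4 M counts of that part (median 13.3 M; M, mega). Levels are given as counts per M counts of that part (CPM). The lowest count of any of the 9 genes in any library was 349. Counting error, 1 over the root of the mean count, was 0.995% to 1.35% per group for Hspa5, where the coefficient of variation between animals of a group was 11% to 21.5%. It was close to the spread between animals in some groups for Sec61b (4.41% to 4.68%, against 5.52% to 11.8%) and Erp44 (2.93% to 3.16%, against 3.06% to 10.1%). All 12 tested markers of hippocampal neurons were present, with a summed level of 5160 to 7740 CPM per library. In tissue RNA of this kind, a lower level may come from fewer cells of a type or from less RNA per cell, which cannot be told apart.

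The control regions of Hspa5, Pdia3 and Pdia4 are shown because Pdia4 and Pdia3 followed Hspa5 most closely from animal to animal in the results given further on. Each run gives the 250 bases before the start site of transcription in RefSeq (build GRCm38.p6), on the strand of the gene. They lie at chr2:34771840-34772089 on the plus strand for Hspa5, at chr2:121413652-121413901 on the plus strand for Pdia3 and at chr6:47813513-47813762 on the minus strand for Pdia4. For Hspa5 and Pdia3 the gene as counted begins inside this stretch. Capitals mark matches to the endoplasmic reticulum stress response element, to its shorter form and to the core of the unfolded protein response element.
Hspa5: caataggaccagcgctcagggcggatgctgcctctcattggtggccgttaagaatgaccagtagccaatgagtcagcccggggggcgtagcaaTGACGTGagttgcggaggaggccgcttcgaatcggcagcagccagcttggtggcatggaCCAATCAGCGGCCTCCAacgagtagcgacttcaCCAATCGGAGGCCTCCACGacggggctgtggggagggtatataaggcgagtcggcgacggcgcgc
Pdia3: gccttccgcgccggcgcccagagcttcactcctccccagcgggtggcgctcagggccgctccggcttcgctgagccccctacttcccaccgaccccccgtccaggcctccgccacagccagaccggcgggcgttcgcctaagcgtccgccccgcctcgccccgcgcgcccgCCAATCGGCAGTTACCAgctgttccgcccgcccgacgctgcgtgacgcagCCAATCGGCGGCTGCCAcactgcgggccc
Pdia4: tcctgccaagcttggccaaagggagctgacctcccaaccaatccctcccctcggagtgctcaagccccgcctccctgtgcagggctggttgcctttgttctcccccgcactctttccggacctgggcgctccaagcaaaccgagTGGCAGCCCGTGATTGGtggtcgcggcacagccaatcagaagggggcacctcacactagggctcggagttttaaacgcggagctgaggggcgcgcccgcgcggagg
The stress response element, ERSE, was searched on both strands as CCAAT and CCACG with 9 bases of any kind between them. It is known from human and rodent chaperone genes as a site where the factor NF-Y and ATF6 meet. Hspa5 held it between positions -65 and -47, counted back from the start site, and it occurred in 0.113% of 32851 promoters searched. A form without the last 2 letters, which ends in CCA, was added after the promoters had been read, and every full element also contains it. Hspa5 held this form between -98 and -82 and inside its full element, and Pdia3 between -79 and -63 and between -29 and -13. Pdia4 held it on the opposite strand between -106 and -90. It occurred in 0.977% of promoters, and 0.0396% held it at least 2 times, as Hspa5 and Pdia3 did. The core of the unfolded protein response element, TGACGTG, lay between -157 and -151 in Hspa5 and in 1.65% of promoters.

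Promoters were found for 7 of the 9 genes, and Atf6 and Sec61a1 were not among them. Those of Mlec, Dnajc10, Erp44 and Sec61b held no full or shortened ERSE, no ERSE-II (ATTGG and CCACG with 1 base between them, in 0.0304% of promoters) and no TGACGTG. None of the 7 held the E-box CACGTG, the site of the circadian clock factors, which occurred in 6.02% of promoters. None held a heat shock element, searched on both strands as GAA, TTC and GAA with 2 bases between each, which occurred in 0.466%. Such a match is a run of letters and says nothing about binding, and a missing match says only that these letters are not in this window.

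Compared per length, Pdia3 and Hspa5 were the most abundant of the 9 transcripts. Length was that of all annotated exons of a gene joined, not of the transcripts expressed, so the order depends on the annotation. Over all 69 animals Pdia3 stood at 146 ± 16.2 CPM per kb of exon and Hspa5 at 142 ± 34 CPM per kb (SD, n = 69). Mlec followed at 60.4 CPM per kb, then Pdia4 at 39.5, Dnajc10 at 36.7, Sec61b at 28.5, Sec61a1 at 27.5, Atf6 at 24.2 and Erp44 at 24.1 CPM per kb. The genes differed widely in how much animals varied. The level of Hspa5 in the highest animal was 3 times that in the lowest, and for Pdia4 this ratio was 2.42, while for the other 7 genes it lay between 1.44 and 1.83. With groups and cohort removed, the SD of log2 CPM was 0.243 for Hspa5 and 0.225 for Pdia4, above 74.7% and 71.4% of all genes. For the other 7 genes it lay between 0.0912 and 0.129.

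Hspa5, on chromosome 2 (34771970 to 34777547, GRCm38), encodes BiP, the Hsp70 chaperone of the endoplasmic reticulum and the regulator that holds the stress sensors inactive. At P66 its lowest, median and highest levels were 410, 535 and 645 CPM in separated knockouts. They were 337, 403 and 473 CPM in control knockouts, 541, 730 and 1010 CPM in separated wildtypes, and 441, 514 and 676 CPM in control wildtypes. All 10 separated wildtypes lay above the median of the control wildtypes and 7 of them above the highest. All 7 control knockouts lay below the median of the control wildtypes and 5 of them below the lowest, and the ranges of every such pair of groups still overlapped. Averaged over the other factor, knockouts differed from wildtypes by a log2 change of -0.45 ± 0.0806 (SE, 14 against 17 animals), and separated from control animals by 0.45 ± 0.0814 (17 against 14). The separated knockouts (528 ± 81.3 CPM, SD, n = 7) and the control wildtypes (529 ± 75.4 CPM, n = 7) had nearly the same mean when both cohorts were pooled. Within each cohort the 2 groups differed, in opposite directions. In the same order they averaged 566 and 501 CPM in cohort 1 (n = 5 and 3), and 433 and 550 CPM in cohort 2 (n = 2 and 4).

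At P22 Hspa5 passed no test between the same 4 groups. The lowest, median and highest levels were 480, 617 and 903 CPM in separated knockouts, 472, 589 and 824 CPM in control knockouts, 479, 581 and 931 CPM in separated wildtypes, and 477, 648 and 749 CPM in control wildtypes. Each of these 4 ranges contained the means of the other 3 groups. The genotype difference was -0.03 ± 0.0795 on the log2 scale (SE, 95% interval -0.19 to 0.13, 19 against 19 animals; edgeR adjusted p = 0.936) and the separation difference was 0.02 ± 0.0781 (interval -0.13 to 0.18, 21 against 17 animals; adjusted p = 0.999). The interaction at P22 was 0.08 ± 0.157 (interval -0.24 to 0.40, edgeR adjusted p = 0.867). Ordered by mean over both ages, Hspa5 ran 764 CPM in separated wildtypes at P66, then 650, 623, 612 and 601 CPM in the separated knockouts, control wildtypes, separated wildtypes and control knockouts of P22, and then 529, 528 and 411 CPM in the control wildtypes, separated knockouts and control knockouts of P66. Among neighbours in this order, the gap exceeded the larger SD of the 2 groups in a single place, the last. These means were not adjusted for cohort, and at P22 Hspa5 averaged higher in cohort 2 in every group. Of the separated knockouts of P22, 8 of 10 were of cohort 2. In the control knockouts, separated wildtypes and control wildtypes of P22 it was 5 of 9, 5 of 11 and 4 of 8.

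Dnajc10 (ERdj5, chromosome 2, 80315466 to 80354043) is a cochaperone of BiP and a reductase that opens wrong disulfide bonds. Its groups lay close together. At P66 its lowest, median and highest levels were 139, 181 and 224 CPM in separated knockouts, 180, 193 and 219 CPM in control knockouts, 177, 185 and 217 CPM in separated wildtypes and 176, 193 and 206 CPM in control wildtypes. The 4 groups overlapped across most of their range, and the P66 differences were -0.03 for genotype and -0.06 for separation on the log2 scale. At P22 Dnajc10 averaged 176 ± 15 CPM in separated knockouts and 173 ± 14.5 CPM in control knockouts, against 183 ± 13.6 CPM in separated wildtypes and 185 ± 12.4 CPM in control wildtypes (SD, n = 10, 9, 11 and 8). The genotype difference of -0.08 ± 0.0377 (SE, interval -0.16 to -0.01) had the smallest p of the 9 genes at that age (unadjusted edgeR p = 0.0329) and did not pass with an adjusted p of 0.832.

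Pdia3 (ERp57, chromosome 2, 121413775 to 121438687) is the disulfide isomerase that works with the lectin chaperones calnexin and calreticulin. At P66 its lowest, median and highest levels were 389, 415 and 479 CPM in separated knockouts, 318, 368 and 424 CPM in control knockouts, 435, 515 and 571 CPM in separated wildtypes and 403, 438 and 484 CPM in control wildtypes. Of the 7 control knockouts 6 lay below every control wildtype, and of the 10 separated wildtypes 8 lay above every control wildtype. The P66 differences were -0.24 ± 0.0405 for genotype and 0.21 ± 0.0413 for separation on the log2 scale. At P22 the group means stood close together, at 470 ± 41.6 CPM in separated knockouts, 459 ± 39.2 CPM in control knockouts, 474 ± 46 CPM in separated wildtypes and 468 ± 26.5 CPM in control wildtypes. The P22 differences were -0.04 ± 0.0379 for genotype (SE, interval -0.12 to 0.04) and 0.02 ± 0.0372 for separation (interval -0.05 to 0.10), with edgeR adjusted p = 0.843 and 0.999.

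Pdia4 (ERp72, chromosome 6, 47796141 to 47813430, minus strand), is a larger isomerase found in complexes with BiP. Its lowest, median and highest levels at P66 were 67.2, 87.4 and 108 CPM in separated knockouts, 63.6, 72.2 and 78.8 CPM in control knockouts, 77.1, 102 and 140 CPM in separated wildtypes and 69.4, 79.8 and 95.3 CPM in control wildtypes. Of the 7 separated knockouts 6 lay above every control knockout, and of the 10 separated wildtypes 6 lay above every control wildtype. The log2 difference for separation was 0.37 ± 0.0783 and that for genotype -0.19 ± 0.0773 at P66. At P22 the means were 105 ± 21.9 CPM in separated knockouts, 101 ± 17.7 CPM in control knockouts, 98.1 ± 15.6 CPM in separated wildtypes and 94.6 ± 14.3 CPM in control wildtypes. There the differences were 0.05 ± 0.0729 for genotype (SE, interval -0.10 to 0.20, edgeR adjusted p = 0.887) and 0.04 ± 0.0714 for separation (interval -0.10 to 0.19, adjusted p = 0.999).

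Erp44 (chromosome 4, 48193323 to 48279558, minus strand) retains unassembled proteins and returns them from the Golgi to the endoplasmic reticulum. Its P66 levels were 61.2, 79.6 and 84.2 CPM (lowest, median and highest) in separated knockouts, 70, 74.8 and 87.5 CPM in control knockouts, 71.2, 87.2 and 94.7 CPM in separated wildtypes and 75.3, 79.5 and 82.8 CPM in control wildtypes. The separated wildtypes had the highest median, and all 4 ranges overlapped. The log2 differences at P66 were -0.11 ± 0.0438 for genotype and 0.08 ± 0.0446 for separation.

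Mlec (malectin, chromosome 5, 115142981 to 115158179, minus strand) is a membrane lectin that binds the glucosylated sugar chains of new glycoproteins. At P66 its lowest, median and highest levels were 324, 363 and 420 CPM in separated knockouts, 303, 331 and 351 CPM in control knockouts, 344, 398 and 442 CPM in separated wildtypes and 345, 357 and 382 CPM in control wildtypes. Of the 7 control knockouts 6 lay below every control wildtype, and 8 of the 10 separated wildtypes lay above every control wildtype. The log2 differences at P66 were -0.13 ± 0.035 for genotype and 0.15 ± 0.0358 for separation. At P22 the 4 means lay between 358 and 362 CPM, and the differences were -0.02 ± 0.0356 for genotype (SE, interval -0.09 to 0.05) and -0.01 ± 0.035 for separation (interval -0.08 to 0.06), with edgeR adjusted p = 0.919 and 0.999.

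**Figure D1:**
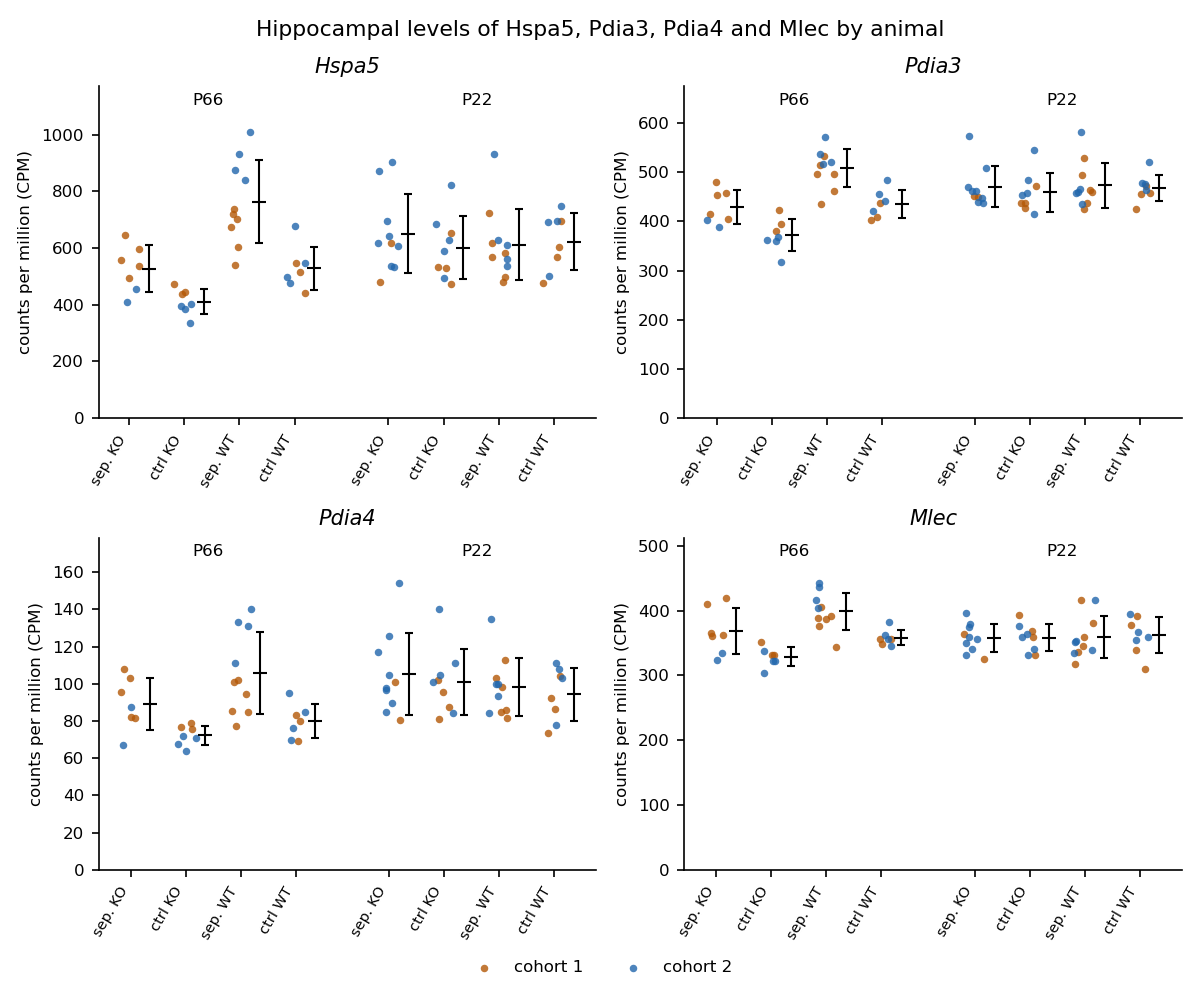
Level of Hspa5, Pdia3, Pdia4 and Mlec in each animal, in CPM, by group at P66 (left of each panel) and P22 (right), with the mean and SD beside the points and the cohort in colour. At P66 the separated wildtypes have the highest means (764, 508, 106 and 399 CPM) and the control knockouts the lowest (411, 373, 72.2 and 329 CPM), and at P22 the 4 groups lie together.

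Atf6 (chromosome 1, 170704674 to 170867771, minus strand), the gene of the membrane-bound sensor, was flat over all groups. Its group means lay between 219 and 227 CPM at P66 and between 218 and 225 CPM at P22, and the log2 differences at P66 were 0.01 for genotype and 0.02 for separation. These are levels of the transcript; the sensor is activated by cleavage of the protein, which was not measured.

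Of the channel genes, Sec61a1 (chromosome 6, 88503579 to 88518905, minus strand) encodes the pore and Sec61b (chromosome 4, 47474658 to 47483242) a small accessory subunit. Sec61b stood between 31.1 and 47.2 CPM over all animals, with group means between 34.1 and 37.8 CPM. Sec61a1 averaged 175 ± 19.8 CPM in separated knockouts, 166 ± 11 CPM in control knockouts, 166 ± 11.4 CPM in separated wildtypes and 163 ± 8.26 CPM in control wildtypes at P66. Their P66 differences by genotype and by separation lay between -0.01 and 0.05 on the log2 scale. Sec61a1 shares 549 exon bases with Gm44170, an antisense gene, and whether strand was used in counting is not given in the sources used here, so reads of the pair cannot be told apart.

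**Figure D2:**
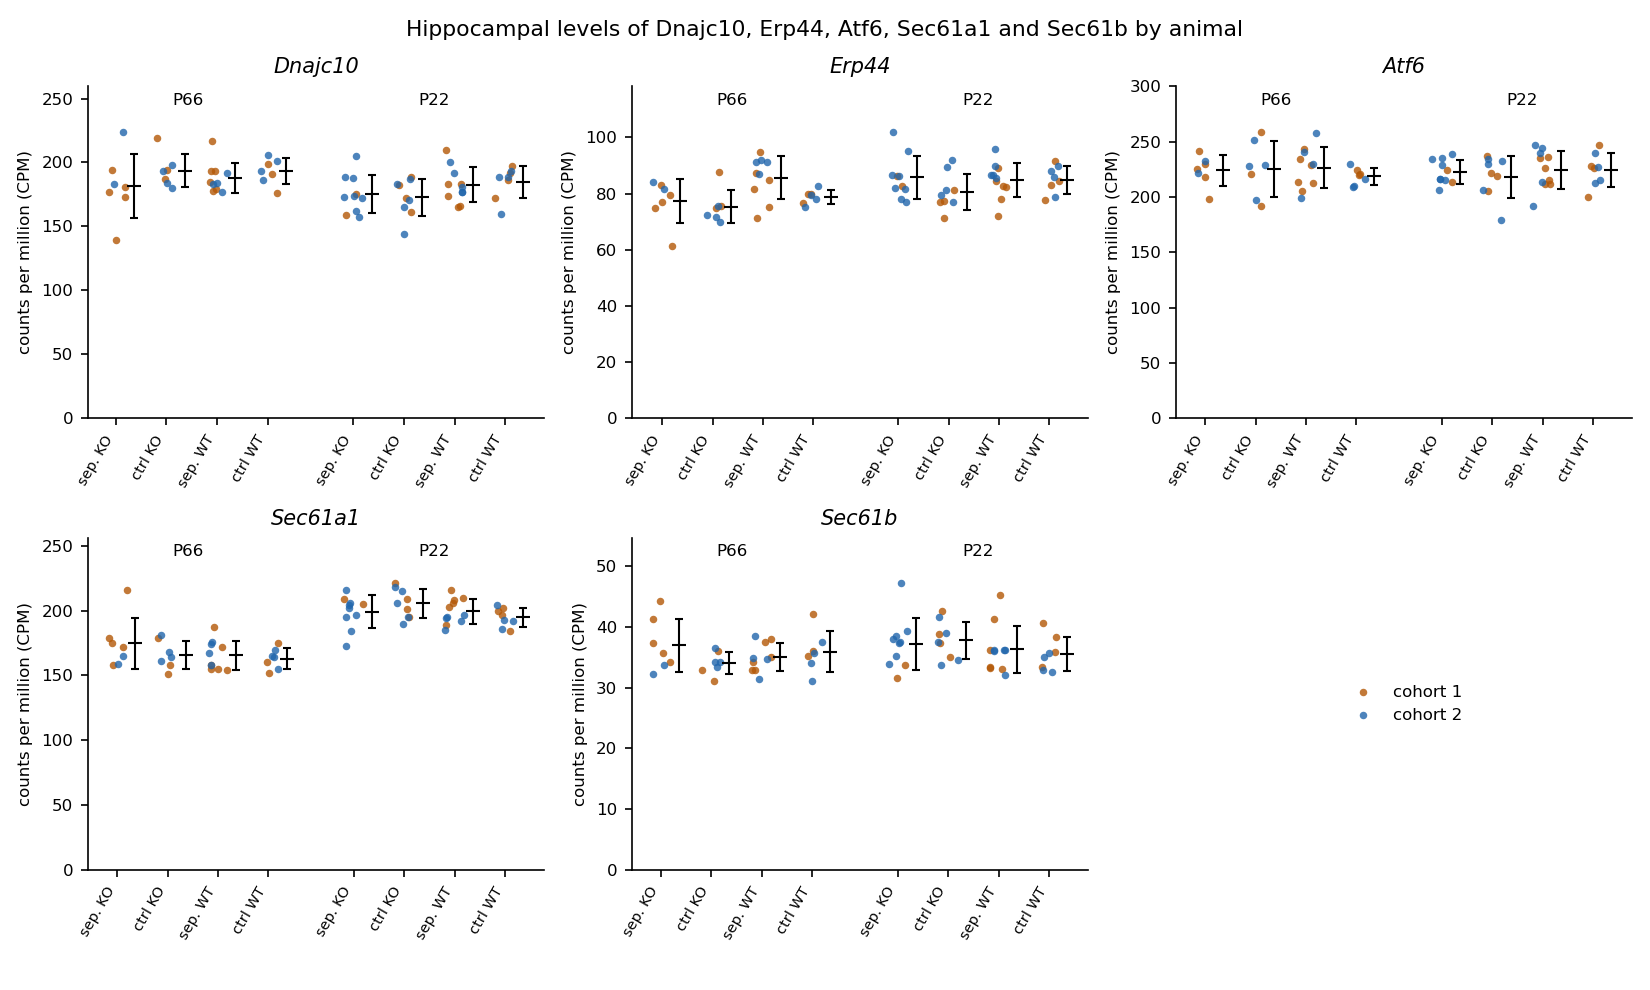
Level of Dnajc10, Erp44, Atf6, Sec61a1 and Sec61b in each animal, in CPM, by group at P66 (left of each panel) and P22 (right), with the mean and SD beside the points and the cohort in colour. The groups of 1 age overlap in every panel, and Sec61a1 is lower at P66, with group means of 163 to 175 CPM, than at P22, with 195 to 206 CPM.

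Counted over the 9 genes, 4 were called for separation at P66, all higher (Hspa5, Pdia3, Pdia4 and Mlec), where 0.371% of 7001 genes were called in either direction and 0.129% higher. For genotype 2 were called, both lower (Hspa5 and Pdia3), where 0.0571% of genes were called in either direction and 0.0429% lower. Since these contrasts chose the genes, nothing is read from the counts. The 4 calls for separation became 1 when any of 6 single libraries was left out, where 3 to 7 of 6994 to 7024 genes were called. Over all 31 such fits the separation difference was 0.42 to 0.49 for Hspa5 and 0.19 to 0.23 for Pdia3. It was 0.34 to 0.42 for Pdia4 and 0.14 to 0.18 for Mlec. The 4 calls became 0 within either cohort alone, where 0 of 7040 genes (cohort 1) and 2 of 7106 genes (cohort 2) were called. The 2 calls for genotype became 0 within cohort 1 and 4 within cohort 2, where 0 of 7040 and 96 of 7106 genes were called. The sign was positive for separation in 8 of 9 genes and negative for genotype in 7 of 9. At P22, in other animals, 0 of 9 passed for genotype, separation or their interaction in edgeR and in DESeq2, and 0% of 7036 genes did. An unadjusted edgeR p under 0.05 occurred in 289, 217 and 596 of all genes for these 3 contrasts, and among the 9 genes in Dnajc10 for genotype alone. The interaction at P66 passed in 0 genes by edgeR and by DESeq2, with 317 genes at an unadjusted edgeR p under 0.05, and for Hspa5 it was -0.16 ± 0.159 (SE).

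**Figure D3:**
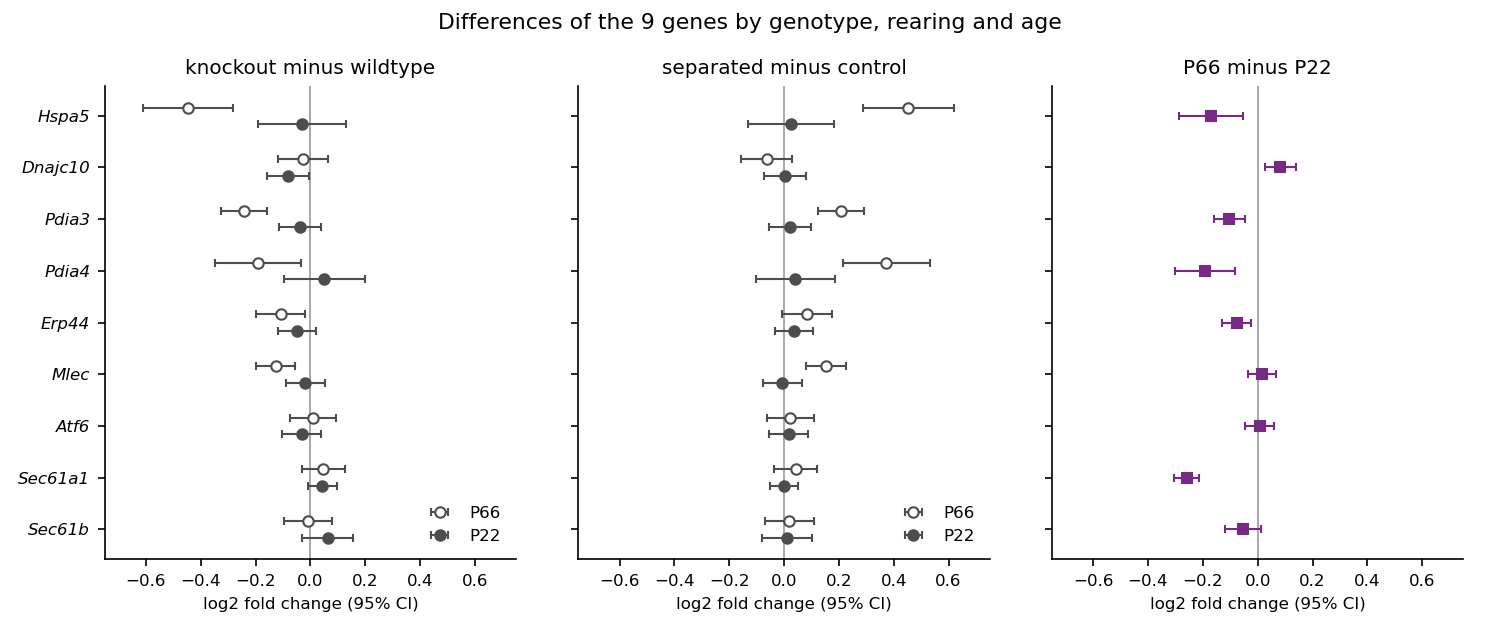
Log2 fold changes of the 9 genes with 95% intervals for knockout minus wildtype and separated minus control at P66 (open circles) and P22 (filled circles), and for P66 minus P22 (squares). The P66 values of Hspa5 are -0.45 and 0.45 and stand far from 0, the P22 values of Hspa5 are -0.03 and 0.02, and the age difference of Sec61a1 at -0.26 is the farthest from 0 in the right panel.

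The P66 differences were not alike in the 2 cohorts. In separated wildtypes Hspa5 averaged 664 ± 76.6 CPM in cohort 1 (SD, n = 6) and 915 ± 75.2 CPM in cohort 2 (n = 4). Pdia4 stood at 90.9 ± 10 CPM in cohort 1 and 129 ± 12.4 CPM in cohort 2. In separated knockouts the 5 animals of cohort 1 were higher than the 2 of cohort 2, with Hspa5 at 566 and 433 CPM and Pdia4 at 94 and 77.3 CPM. The log2 differences by genotype were small within cohort 1 (Hspa5 -0.19, Pdia3 -0.11, Pdia4 0.01, Mlec -0.04) and larger within cohort 2 (-0.80, -0.39, -0.49 and -0.26 in the same order). The differences by separation were closer, at 0.36, 0.18, 0.25 and 0.14 within cohort 1 and 0.46, 0.21, 0.42 and 0.13 within cohort 2.

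Genes of the circadian clock also differed by separation at P66, with 1 higher and 2 lower of 11 tested at an edgeR adjusted p under 0.05 (Ciart -0.46, Dbp -0.51, Arntl 0.16 on the log2 scale). The summed level of the 11 was 1430 to 1520 CPM in separated knockouts, 1560 to 1660 CPM in control knockouts, 1380 to 1590 CPM in separated wildtypes and 1450 to 1560 CPM in control wildtypes. With a clock score as covariate the P66 separation differences became 0.26 for Hspa5, 0.09 for Pdia3, 0.26 for Pdia4 and 0.08 for Mlec. Those by genotype became -0.33, -0.17, -0.12 and -0.08. None was called, and in this setting 0 of 7001 genes were called in either contrast. The score was the mean log2 CPM of 4 tested clock genes, Ciart and Dbp among them, and not of the 11. It thus partly follows separation at P66, and a fit that includes it has less power for separation. The hour at which each animal was killed is not given in the sources used here, and its part in these differences was not tested. Of the markers of other cells, 10 of 10 choroid plexus genes had negative separation differences at P66 (median -0.27) and 9 of 9 oligodendrocyte genes positive ones (median 0.16), and 0 of either list were called. Summed choroid plexus levels were 106 to 696 CPM in separated knockouts, 86 to 542 CPM in control knockouts, 66.4 to 454 CPM in separated wildtypes and 196 to 474 CPM in control wildtypes, and no marker of either list was at 0 in all libraries. With scores of both lists as covariates, the separation differences of Hspa5, Pdia3, Pdia4 and Mlec were 0.43, 0.19, 0.35 and 0.15. In that fit 0 of the 9 genes were called for separation, and 0 of 7001 genes were. For genotype 2 of the 9 were called, beside 4 of 7001 genes.

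Between the ages, averaged over the 4 genotype and rearing groups, 5 of the 9 genes were lower at P66 than at P22 and 1 was higher. These shares stand in a setting where 25.8% of 7131 genes were lower and 26.2% higher (52% in either direction). The p-values by age carry the limit given at the start, since the average contains the P66 levels of the chosen genes. Sec61a1 fell by 0.26 on the log2 scale (-0.26 ± 0.0228, SE, 31 against 38 animals, edgeR adjusted p = 1.7e-15). Pdia4 (-0.19 ± 0.0545, adjusted p = 0.00241), Hspa5 (-0.17 ± 0.0587, adjusted p = 0.0122), Pdia3 (-0.10 ± 0.0283, adjusted p = 0.00155) and Erp44 (-0.08 ± 0.027, adjusted p = 0.0138) also fell by edgeR, and Dnajc10 rose (0.08 ± 0.0287, adjusted p = 0.0128). Sec61b (-0.05), Mlec (0.01) and Atf6 (0.01) did not pass, with edgeR adjusted p of 0.157, 0.644 and 0.822.

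The age difference of Sec61a1 was nearly the same in every group. Its P66 and P22 ranges were 158 to 216 and 173 to 216 CPM in separated knockouts, 151 to 181 and 190 to 221 CPM in control knockouts, 154 to 187 and 185 to 216 CPM in separated wildtypes, and 152 to 175 and 184 to 204 CPM in control wildtypes. In both control groups no animal of P66 reached the lowest of P22, as for 5.44% of all genes in control knockouts and 6.39% in control wildtypes. The log2 age differences were -0.20, -0.31, -0.27 and -0.26 in separated knockouts, control knockouts, separated wildtypes and control wildtypes. Within cohort 1 the age difference was -0.28 and within cohort 2 it was -0.25.

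The age difference of Hspa5, Pdia3 and Pdia4 differed in sign between the groups. In the order separated knockouts, control knockouts, separated wildtypes and control wildtypes, it was -0.22, -0.54, 0.32 and -0.25 for Hspa5, -0.11, -0.30, 0.10 and -0.11 for Pdia3, and -0.15, -0.47, 0.11 and -0.25 for Pdia4. Separated wildtypes thus had a positive sign where the other 3 groups had a negative one. Their 95% intervals were 0.11 to 0.53 for Hspa5, 0.004 to 0.20 for Pdia3 and -0.08 to 0.30 for Pdia4. In separated knockouts the interval reached past 0 for all 3 genes. Within cohort 1, however, the mean of separated wildtypes for Pdia4 was 90.9 CPM at P66 and 94.5 CPM at P22, and that of separated knockouts was 566 CPM at P66 and 548 CPM at P22 for Hspa5 and 94 and 90.8 CPM for Pdia4 (5 and 2 animals). By these means the pattern of signs held for all 3 genes within cohort 2 and for Pdia3 within cohort 1. For Pdia4 all 7 control knockouts of P66 lay below all 9 of P22, as for 5.44% of all genes in either direction. Since the P66 levels chose these genes, the split by group is a description. As log2 differences, the age change of Hspa5 was lower in knockouts than in wildtypes by -0.42 ± 0.118 and higher in separated than in control animals by 0.44 ± 0.117 (SE). Neither passed, with an edgeR adjusted p of 0.189 for separation. Mlec, which did not differ by age on average, had age differences of 0.05, -0.12, 0.15 and -0.01 in the same order of groups, and Dnajc10 had 0.06, 0.17, 0.05 and 0.06.

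**Figure D4:**
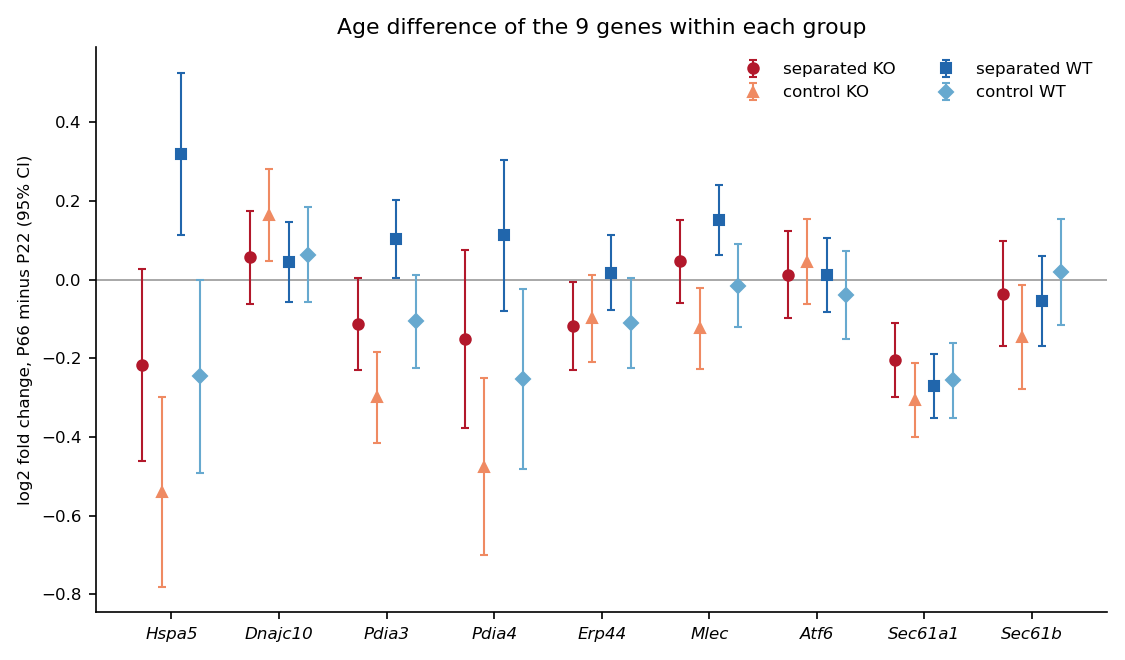
Log2 fold change P66 minus P22 of each of the 9 genes within separated knockouts, control knockouts, separated wildtypes and control wildtypes, with 95% intervals. The 4 values of Sec61a1 lie together between -0.31 and -0.20, and those of Hspa5 spread between -0.54 in control knockouts and 0.32 in separated wildtypes.

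Outside Sec61a1 the age calls were made in cohort 2 and not in cohort 1, and they were lost once scores of other cell types were added. Within cohort 1 the age differences were -0.06 for Hspa5, -0.06 for Pdia3, -0.11 for Pdia4, -0.05 for Erp44 and 0.09 for Dnajc10, and 1 of the 9 genes was called, beside 30.2% of all genes. Within cohort 2 they were -0.30, -0.16, -0.28, -0.09 and 0.11, and 6 were called, beside 38.5% of all genes. Oligodendrocyte markers were lower at P66 in 9 of 9 genes (median -1.38), with summed levels of 1030 to 2520 CPM at P66 against 2360 to 5700 CPM at P22 and none at 0. Their score thus largely follows age, and a fit that includes it has less power for age. The part of cell composition in the age differences was not tested. With choroid plexus and oligodendrocyte scores as covariates, 13% of all genes were called in place of 52%, and of the 9 genes 1, Sec61a1 (-0.18, edgeR adjusted p = 0.00965), while Pdia4 stood at -0.002, Hspa5 at -0.09, Pdia3 at -0.05, Erp44 at -0.10 and Dnajc10 at -0.05.

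Inside groups, animals high in Hspa5 were high in Pdia4, Pdia3 and Mlec. This was measured as the correlation of log2 CPM over the 69 libraries after the group means and 1 cohort term common to all groups had been removed. Pdia4 was the most similar of 7130 genes compared (Pearson's r = 0.913, Spearman's rho = 0.92), Pdia3 was next (r = 0.834, rho = 0.804) and Mlec was at rank 4 (r = 0.66, rho = 0.677). For each, the permutation p over libraries within groups was 1e-05, the smallest that 100000 permutations can give, with adjusted p = 0.00356 for r and 0.00285 for rho over all genes. Positive r passed in 0.856% of genes and negative r in 0.505%, and the median r of all genes was -0.00483. Both values of a point come from 1 library, so depth, dissection and time of collection are shared between them.

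The other 5 genes did not pass this test. Erp44 had r = 0.344 and rho = 0.295 (permutation p = 0.00757 for r, adjusted p = 0.164). Sec61b had r = 0.153, Atf6 0.008, Sec61a1 -0.024 and Dnajc10 -0.099, with adjusted permutation p of 0.646, 0.987, 0.963 and 0.802. Outside the 9 genes the most similar were Zbtb40, a zinc finger gene (r = 0.751, rho = 0.767), Hspb1, a small heat shock protein (r = 0.643, rho = 0.689), Uggt1, the enzyme that marks misfolded glycoproteins for another round of folding (r = 0.594, rho = 0.6), Ncoa5, a nuclear receptor coactivator (r = 0.593, rho = 0.602), and Mkks, a chaperonin-like protein (r = 0.586, rho = 0.59). All 5 had a permutation p of 1e-05 and an adjusted p of 0.00356 for r.

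A common cohort term leaves in place the cohort differences that vary between groups, such as those of Hspa5 at P66. In an alternative chosen after seeing the data, the mean of each group and cohort was removed, with permutations inside group and cohort. Then r was 0.889 for Pdia4, 0.805 for Pdia3 (both adjusted permutation p = 0.0119) and 0.577 for Mlec (adjusted permutation p = 0.0238). Zbtb40 (0.703), Hspb1 (0.607) and Uggt1 (0.543) still passed, while Ncoa5 (0.495) and Mkks (0.482) did not, with adjusted permutation p of 0.126 and 0.0759.

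The r of Pdia4, Pdia3 and Mlec was positive in each age and each cohort taken alone, and the call was lost for all 3 in cohort 1 and for Mlec at P22. Within a single cohort the group means were not removed afresh. The r of a single cohort therefore also holds differences between groups, among them the P66 levels that chose the genes. For Pdia4, r was 0.899 at P66 and 0.923 at P22, and 0.851 in cohort 1 and 0.946 in cohort 2. For Pdia3, r was 0.85 at P66 and 0.823 at P22, and 0.704 in cohort 1 and 0.908 in cohort 2. For Mlec it was 0.75 at P66 and 0.599 at P22, and 0.492 in cohort 1 and 0.825 in cohort 2. Without the 2 libraries farthest from the median of Hspa5, r was 0.911 for Pdia4, 0.8 for Pdia3 and 0.611 for Mlec. In cohort 1 alone the adjusted permutation p of r was 0.057 for Pdia4, 0.0832 for Pdia3 and 0.299 for Mlec, which was at rank 48, and at P22 alone it was 0.0671 for Mlec. In the other single ages and cohorts it lay between 0.0143 and 0.0428 for the 3 genes.

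**Figure D5:**
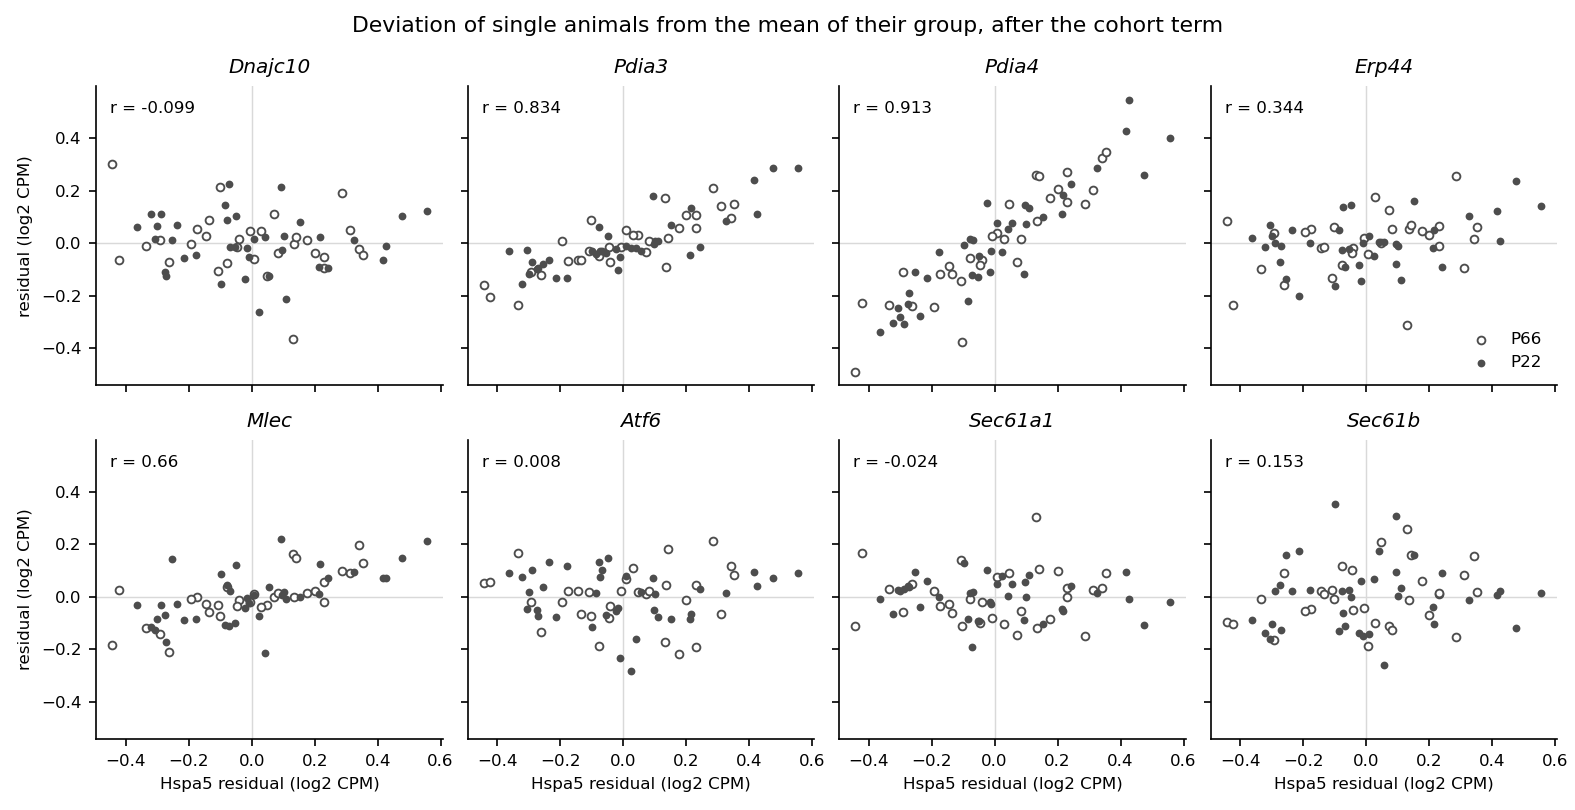
Deviation of each animal from its group, with the cohort term removed, in log2 CPM, for Hspa5 (horizontal) against each of the other 8 genes (vertical), at P66 (open) and P22 (filled). Points rise along a line for Pdia4 (r = 0.913) and Pdia3 (r = 0.834), more loosely for Mlec (r = 0.66), and show no slope for Atf6, Sec61a1 and Dnajc10.

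Related genes of folding and of the stress responses were compared at P66 next. The lists, given here with their tested sizes, held 17 chaperones, 13 disulfide and proline isomerases, 18 translocon and glycosylation genes, 9 sensors and factors of the unfolded protein response, 19 targets of the integrated stress response, 13 genes of degradation and 15 of transport to the Golgi. None of them passed for genotype or for separation at P66, at the background shares given above, or at P22. List medians at P66 lay between -0.03 and 0.02 for genotype and between -0.0068 and 0.05 for separation, beside -0.0028 and -0.0027 for all genes. In the order above, 12, 6, 9, 5, 7, 5 and 6 genes of the whole lists were negative for genotype, beside 51.3% of all genes. Positive for separation were 8, 8, 13, 5, 9, 9 and 11, beside 48.3% of all genes. The 2 genes with the smallest p in each list were picked in these same contrasts, so their signs are a description. Of them, 9 of 14 were negative for genotype and 10 of 14 positive for separation at P66, the signs of Hspa5. Among these were Uggt1 (-0.09 for genotype, 0.07 for separation), Fkbp14, a proline isomerase (-0.10 and 0.15), Ostc and Rpn1 of the oligosaccharyltransferase (-0.09 and 0.11, -0.08 and 0.14), Creb3l2 (0.13 for separation) and Eif2ak3, the sensor kinase PERK (0.05 for separation). The opposite sign was found for genotype in Tor1a (0.07), Qsox2 (0.04), Bax (0.07), Nfyc (0.03) and Sesn2 (0.10), and for separation in Eif2ak4 (-0.10), Ube2j2 (-0.04), Edem2 (-0.04) and Sec24d (-0.12). The adjusted p of each by edgeR lay at 0.0949 or above. Heat shock genes of the cytosol and mitochondria were negative for genotype in 11 of 12 and positive for separation in 12 of 12 (medians -0.09 and 0.09), of which Hsph1, a partner of cytosolic Hsp70, passed in both.

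By age these lists changed in both directions. Of the chaperones 5 were higher and 4 lower at P66, with Dnajc16 at 0.24, Sdf4 at 0.14, Calu at -0.18 and Serpinh1, the collagen chaperone, at -0.81. Fibroblast and meningeal collagens fell beside Serpinh1 (Col3a1 -1.83, Col1a2 -1.08), and their part in its fall was not tested. Of the isomerases 3 were higher and 7 lower (Qsox2 0.16, Tmx4 0.19, Gpx7 -0.45, Selenof -0.14), and of the translocon genes 1 was higher and 4 lower (Srp9 0.09, Ssr2 -0.20, Ostc -0.10, Tram2 -0.22). Of the unfolded protein response genes 1 was higher and 5 lower, among them Creb3l2 at -0.21, Creb3l1 at -0.30, Wfs1 at -0.36 and Bax at -0.18. The integrated stress response had 4 higher and 2 lower, degradation 2 higher and 4 lower (Edem1, which pulls misfolded glycoproteins out of folding, at -0.18), transport 4 higher and 3 lower, and the heat shock genes 4 higher and 2 lower (Hsph1 0.15, Hspb8 -0.20). All named here passed at an edgeR adjusted p under 0.05, as did 52% of all genes.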

How the data were processed

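Hippocampal RNA of 69 animals was counted per gene. The authors deposited raw read counts that had not been normalized, in 1 table of genes by animals; per the submitters' processing notes the tools included cutadapt 1.16, FastQC 0.11.4, limma 3.34.9 and edgeR. Aligner, counter and genome build: not given in the sources used here. Complete records numbered 9930 in the held table, and its last, incomplete record (1) was dropped. In all 9885 identifiers were found in GENCODE M21, 96.5% of them at the same position, so positions are on GRCm38. Groups came from the sample titles.

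The tests used edgeR 4.0.16 in R 4.3.3. A gene was retained by filterByExpr (minimum count 10, minimum total 15) with TMM normalization, and all 9 genes passed. Quasi-likelihood tests were run at each age over 7036 (P22) and 7001 (P66) genes with terms for group and cohort, and for age over 7131 genes of all libraries. Standard errors are the log2 change divided by the root of F, and p-values were adjusted by Benjamini-Hochberg over all genes tested, with a threshold of 0.05. The edgeR scripts and the likeness test were tested on simulated data with known changes. Levels are CPM on TMM-scaled totals, and log2 CPM for the likeness used edgeR with a prior count of 2. Interaction terms and single groups came from the same fits.

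The 9 genes and all gene lists were chosen with earlier results of these data known. Named were all 9 genes, from each list at most 4 genes past the threshold with the smallest p or the 2 with the smallest p where none passed, and the 5 other genes most similar to Hspa5. Not every list gene of this rule is printed. Alternatives were RLE factors, DESeq2 1.42.0, each cohort alone, no cohort term, a minimum of 1 CPM in 7 libraries, no filter, marker scores or a clock score (mean log2 CPM of 4 tested clock genes) as covariates, 1 fit of all libraries, an adjusted p under 0.1 and leaving out each library. Leaving out libraries over 2 log2 units from the median choroid plexus score (3 at P22, 3 at P66) was chosen after seeing the data, as was the removal of group by cohort means for the likeness.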

Additional observations from a re-analysis of the deposited data

Results flagged for a closer look

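In 6 of 63 combinations of gene and group, 1 animal stood far from the rest of its group, beyond the 95% critical value of Dixon's test; chance gives about 1 in 20 such combinations, and the group of 11 separated wildtypes at P22 was too large for it. Pdia3 reached 574 CPM in 1 separated knockout at P22, where the next animal had 509 CPM. Sec61b reached 47.2 CPM in another separated knockout at P22, with 39.4 CPM in the next. Dnajc10 reached 217 CPM in 1 separated wildtype at P66, with 193 CPM in the next. Erp44 reached 87.5 CPM in 1 control knockout at P66, with 75.6 CPM in the next. A single separated knockout at P66, of cohort 1, gave both remaining values, an Erp44 level of 61.2 CPM and a Sec61a1 level of 216 CPM, where the next highest was 179 CPM.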

How the results depend on the processing

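No paired analysis was possible because numbers were given afresh in each cohort and rearing group, and the labels do not link animals that share one. At P22 no alternative called any of the 9 genes for genotype, separation or interaction. For age, 6 genes were called in most settings and 1 was called within cohort 1 alone and with choroid plexus and oligodendrocyte scores. For genotype at P66 the count of 2 became 0 within cohort 1, 4 within cohort 2 and 0 with the clock score. All genes called there were, in that order, 0 of 7040, 96 of 7106 and 0 of 7001. For separation at P66 the count of 4 became 0 within cohort 1, 0 within cohort 2, 0 with choroid plexus and oligodendrocyte scores, 0 with the clock score and 2 without the libraries far from the median choroid plexus score, a setting chosen after seeing the data. All genes called were, in that order, 0 of 7040, 2 of 7106, 0 of 7001, 0 of 7001 and 7 of 7013. Leaving out 1 library gave 1 to 4 called genes for separation at P66. The count was 1 without control wildtypes C1-15 or C1-6, separated knockouts C1-2 or C1-58, or separated wildtypes C2-55 or C2-64, and 2 without control knockouts C2-41, C2-42 or C2-61, control wildtypes C2-84 or C2-86, separated knockout C1-56, or separated wildtypes C1-53, C2-42 or C2-66. Of all genes, 3 to 7 were called where the count was 1, and 6 to 8 where it was 2. Leaving out 1 library gave 6 for age, 2 for genotype at P66 and 0 at P22 in every case.

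Among values that had been called, the sign turned for Dnajc10 by age alone, which was -0.05 with choroid plexus and oligodendrocyte scores. The genotype difference of Pdia4 at P66 was 0.01 within cohort 1, and other P66 signs that turned belonged to values between -0.06 and 0.08. By age Mlec was -0.01 within cohort 2, -0.02 with those scores and -0.02 with the clock score, and Atf6 was -0.02 and -0.01 with the same covariates and -0.004 to 0.02 when 1 library was left out. For genotype at P22 Hspa5 was 0.01 without the cohort term, 0.01 within cohort 2 and 0.02 without the libraries far in choroid plexus score (-0.06 to 0.01 leaving out 1 library), and Pdia4 was -0.01 within cohort 1. For separation at P22 Hspa5 was -0.01 within cohort 1 (-0.01 to 0.05 leaving out 1 library), Pdia3 was -0.002 within cohort 2, and Mlec was 0.01 with either set of covariates and 0.01 without the libraries far in choroid plexus score (-0.03 to 0.004 leaving out 1 library). The likeness r to Hspa5 of Atf6 was -0.011 at P22, -0.082 in cohort 2 and -0.051 without the 2 farthest libraries, and that of Sec61a1 was 0.054 at P66, 0.139 in cohort 2 and 0.026 without those libraries. The causes were not tested.

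Limits: the table used here reaches into chromosome 8, so CPM refer to part of each library and many folding genes were not analysed here. Group sizes of 8 to 11 animals limit the small differences that can be seen at P22.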
